A study of Rattus norvegicus with 60 samples.

Results

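The 9 genes described here encode transcriptional regulators of energy metabolism: the coactivators Ppargc1a and Ppargc1b, the nuclear receptors Ppara, Esrra and Esrrg, the transcription factors Nrf1 and Tfam, and the deacetylases Sirt1 and Sirt3. They were chosen by gene symbol, and each symbol matched 1 of the 32545 genes in the deposited table. Poly(A)-enriched RNA was sequenced from 2 regions of the kidney, the cortex and the outer medulla. The rats were Dahl salt-sensitive (SS), an inbred line that becomes hypertensive on a high-salt diet, or carried a knockout of NOX4 on that background (NOX4). NOX4 is an NADPH oxidase of the renal tubule. Rats of each strain were sampled on the control diet (LS), after 7 days (HS7) or after 21 days (HS21) of a diet with 4.0% NaCl, which gives 12 groups of strain, diet and tissue with 5 libraries each, 60 in all. The labels give no age, sex, NOX4 allele or salt content of the control diet. Nor do they say that the libraries of a group came from separate animals, so the p-values measure the spread between libraries.

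Renal tubules reabsorb most of the filtered sodium with ATP made largely by mitochondria, from fatty acids in the proximal tubule and from several fuels in the thick ascending limb. PGC-1 alpha and PGC-1 beta, the products of Ppargc1a and Ppargc1b, bind no DNA themselves and raise transcription through partners that do. ERR alpha (Esrra) and ERR gamma (Esrrg) are orphan nuclear receptors whose targets include respiratory chain, tricarboxylic acid cycle and fatty acid oxidation genes. PPAR alpha (Ppara) is a fatty acid-activated receptor that drives fatty acid oxidation and ketone synthesis. NRF1 (Nrf1, nuclear respiratory factor 1) activates nuclear genes for mitochondrial proteins, and TFAM packages mitochondrial DNA and starts its transcription. SIRT1 is a nuclear NAD-dependent deacetylase with PGC-1 alpha among its substrates, and SIRT3 is the main deacetylase of the mitochondrial matrix.

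The promoter sequences of Esrra, Sirt3 and Ppara are shown because Esrra and Sirt3 were the members that differed between the strains in both tissues, and Ppara was the member that differed most between the tissues. Each line gives the 250 bases before the gene's RefSeq start in GRCr8, read 5′ to 3′ on the gene's strand, and capitals mark CATGCGC, part of the NRF1 consensus, on either strand. The letters of this motif were chosen after the sequences had been seen.
Esrra, chr1:213543306-213543555, minus strand: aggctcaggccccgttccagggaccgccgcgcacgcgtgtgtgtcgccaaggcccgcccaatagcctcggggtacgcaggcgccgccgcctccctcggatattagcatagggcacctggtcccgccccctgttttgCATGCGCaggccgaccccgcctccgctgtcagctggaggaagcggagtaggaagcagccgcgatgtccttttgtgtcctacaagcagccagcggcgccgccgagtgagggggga
Sirt3, chr1:205393602-205393851, minus strand: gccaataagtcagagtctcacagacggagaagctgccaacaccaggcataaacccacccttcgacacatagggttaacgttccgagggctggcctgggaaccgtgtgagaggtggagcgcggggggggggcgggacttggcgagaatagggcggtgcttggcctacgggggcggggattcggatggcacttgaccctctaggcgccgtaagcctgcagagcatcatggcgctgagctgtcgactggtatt
Ppara, chr7:118712357-118712606, plus strand: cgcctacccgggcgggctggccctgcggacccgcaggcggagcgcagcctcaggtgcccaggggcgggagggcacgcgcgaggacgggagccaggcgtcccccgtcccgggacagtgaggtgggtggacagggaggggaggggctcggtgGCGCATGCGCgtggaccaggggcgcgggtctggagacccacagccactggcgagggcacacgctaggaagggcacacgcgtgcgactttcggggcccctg
Esrra held 1 match, 108 to 114 bases before its start. Ppara held 2 overlapping matches, on opposite strands, 91 to 100 bases before its start. The other 7 members held none, and 3.26% of all 33469 windows of this length held the motif. The windows of Esrra and Ppara were 68.8% and 76.0% G and C, against a median of 51.2% over all windows. The 3.26% is not matched for this. AAGGTCA, part of the ERR response element, was searched on both strands. It was in no member's window and in 3.99% of all windows. A match is a run of letters and not evidence of binding, and its absence says only that these letters are not in the window.

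Total counts per library ran from about 11490500 to about 29560900 reads, and every member was counted in every library, with the lowest count (48 reads, Ppara) in an outer medulla library. Depth differed between groups. In SS cortex it was about 13402200 to 16640400 reads at LS and 20659800 to 26771000 at HS21, without overlap. In NOX4 cortex at LS it was about 16439200 to 29560900. The part of depth in the members' differences was not tested. The knockout label was checked by Nox4 RNA: in cortex the 15 NOX4 libraries held 54.7 to 77.7 CPM (counts scaled to library size) and the 15 SS libraries 251 to 530, while in outer medulla the strains overlapped, at 1.83 to 15.1 and 6.35 to 111. The cortex libraries carried the markers of proximal tubule segments 1 and 2 (median Slc34a1 5167 CPM) and the outer medulla libraries those of the thick ascending limb (median Umod 9680 and Slc12a1 4040 CPM). Among the SS libraries at LS and HS7, 11 lacked reads for 12 or more of the genes whose median in the tissue was 2 to 5 CPM, against at most 3 such genes in any other library. They are called low-complexity libraries here, 5 in cortex and 6 in outer medulla, and results that rest on them are given with and without them. RNA was extracted from pieces of tissue, so fewer cells of a type and less RNA per cell cannot be told apart.

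Per gene length, Esrra was the most abundant member in both tissues. Its mean over 30 libraries, 5 from each of 6 groups, was 63.7 ± 14.1 FPKM (fragments scaled to gene length and library size; SD) in cortex and 58.4 ± 13.8 in outer medulla. In cortex the order of means was then Tfam (30.7 ± 2.86), Sirt3 (25.0 ± 5.58), Ppargc1a (18.7 ± 3.64), Esrrg (16.9 ± 2.08), Ppara (16.0 ± 4.15), Sirt1 (10.4 ± 1.62), Nrf1 (6.67 ± 1.03) and Ppargc1b (5.07 ± 2.01). In outer medulla Tfam (28.4 ± 3.20), Esrrg (28.0 ± 9.93) and Ppargc1a (26.6 ± 10.9) followed Esrra with overlapping values, then Sirt3 (15.03 ± 2.86), Nrf1 (8.79 ± 1.22), Sirt1 (8.61 ± 1.81), Ppargc1b (5.33 ± 2.23) and Ppara (4.01 ± 1.42). In both orders the libraries of every pair of neighbours overlapped. Tfam had a narrow range, 24.2 to 37.3 FPKM in cortex and 22.2 to 38.8 in outer medulla.

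**Figure D1:**
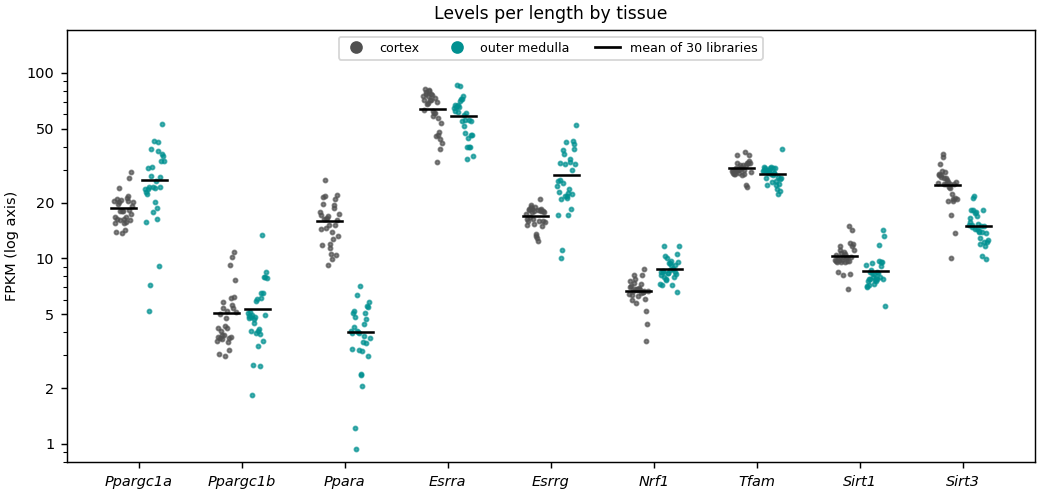
FPKM (log axis) of each member in the 30 cortex and 30 outer medulla libraries, each point a library and each bar the mean. Ppara lies between 9.19 and 26.4 in cortex and between 0.943 and 7.11 in outer medulla, with no overlap, while the points of the other members overlap between tissues.

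Averaged over the 6 groups of strain and diet, 8 of the 9 members differed between the tissues, against 71.6% of the 16326 genes tested (edgeR quasi-likelihood test, Benjamini-Hochberg adjusted p below 0.05). Ppara was lower in outer medulla by the widest margin, with a log2 fold change against cortex of -2.03 ± 0.11 (SE, adjusted p = 8.63e-23). Sirt3 (-0.75 ± 0.06), Sirt1 (-0.30 ± 0.06), Esrra (-0.16 ± 0.05) and Tfam (-0.14 ± 0.04) were also lower there. The ERR gamma gene Esrrg (0.66 ± 0.07, adjusted p = 1.94e-11), the PGC-1 alpha gene Ppargc1a (0.44 ± 0.12) and Nrf1 (0.38 ± 0.05) were higher in outer medulla. Ppargc1b differed by 0.04 ± 0.10 and did not pass. The 8 calls were made in every alternative and with each library left out, all of which scaled the libraries of both tissues together. CPM was instead scaled within each tissue, so its values are not comparable between tissues. On CPM the SS LS means of Esrra (88.3 in cortex, 110 in outer medulla), Tfam (45.1 and 48.9) and Sirt1 (27.8 and 29.9) lay the other way. That of Sirt3 (26.7 and 19.0) did not. The direction of the small differences thus depends on the scaling. Of the listed PPAR alpha targets, 21 of 26 were lower and 3 higher in outer medulla, with a median log2 fold change of -0.83, beside 0.03 over all genes tested. Of 24 ERR and PGC-1 alpha targets, 21 were lower and 0 higher (median -0.51). All 11 mitochondrially encoded protein genes tested (median -0.54) and 20 of 25 genes of mitochondrial DNA upkeep and transcription (median -0.37) were lower in outer medulla as well.

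**Figure D2:**
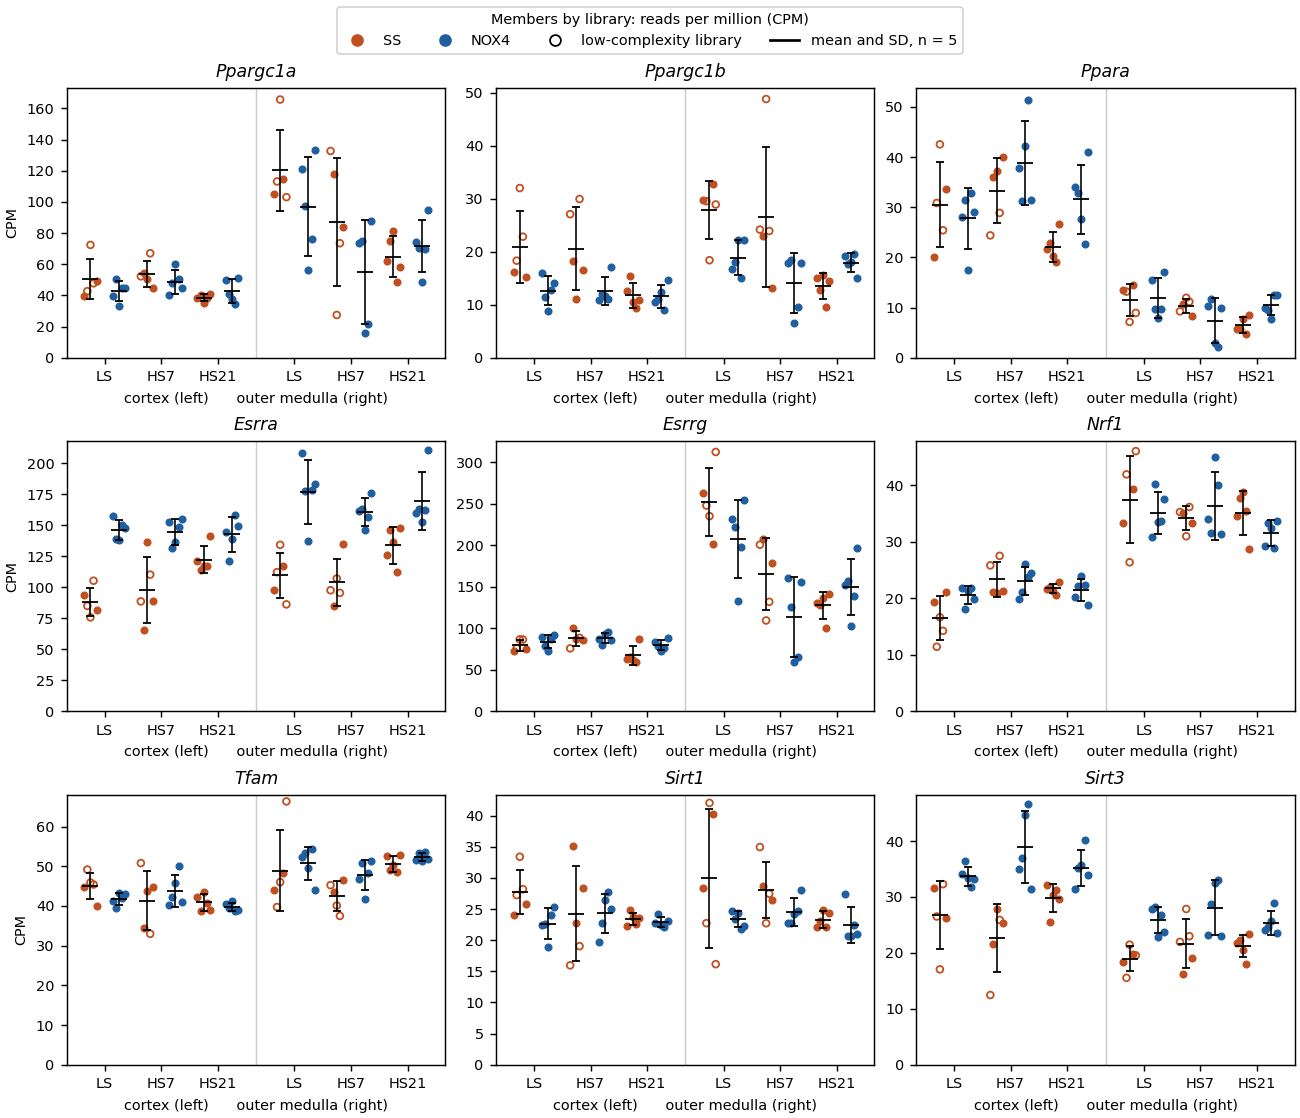
CPM, scaled within each tissue, of each member in all 60 libraries, by tissue, diet and strain, with the mean and SD of each group of 5 and the 11 low-complexity libraries as open points. The NOX4 libraries lie above the SS libraries in Esrra without overlap at LS in both tissues, and 3 of the 4 libraries with the lowest outer medulla Ppargc1a are HS7 libraries.

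In NOX4 rats averaged over the diets, Esrra and Sirt3 were higher than in SS rats in both tissues and Ppargc1b was lower in cortex. In cortex 3 of 9 members passed the test against 31.7% of all 15179 genes, and in outer medulla 2 of 9 against 30.4% of 15799 genes. These shares are near or below the background of each comparison. The median log2 fold change of the 9 members was 0.10 in cortex and -0.05 in outer medulla, and over all genes it was 0.00 and -0.02.

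Esrra passed in both tissues at LS and at HS7. In cortex at LS the SS libraries held 93.7, 85.0, 75.7, 105 and 81.8 CPM and the NOX4 libraries 158, 139, 138, 150 and 148. The lowest NOX4 library was above the highest SS library. At LS in outer medulla the SS values were 98.1, 112, 134, 117 and 86.2 CPM and the NOX4 values 209, 178, 137, 179 and 183, again without overlap, though 1 NOX4 library lay within 4 CPM of the highest SS library. At HS21 the SS cortex libraries, at 114 to 141 CPM, overlapped the NOX4 libraries, at 121 to 159. In outer medulla the HS21 ranges, 112 to 148 in SS and 153 to 211 in NOX4, did not overlap.

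Averaged over diets, the log2 fold change of Esrra was 0.51 ± 0.07 in cortex (edgeR adjusted p = 5.81e-06) and 0.55 ± 0.07 in outer medulla (1.35e-05). By diet it was 0.73 ± 0.12 at LS and 0.56 ± 0.12 at HS7 in cortex, and 0.69 ± 0.13 and 0.63 ± 0.13 in outer medulla, all of which passed. At HS21 it was 0.22 ± 0.12 in cortex and 0.34 ± 0.13 in outer medulla, and neither passed in the fit over all 6 groups of the tissue. The averaged difference was as large without the low-complexity libraries, at 0.51 in cortex and 0.54 in outer medulla, and the values at LS (0.73 in each tissue) and HS7 (0.58 and 0.56) were also called. With the segment 3 score described below as a covariate, the cortex LS difference was 0.49 (adjusted p = 0.11) and no longer passed.

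**Figure D3:**
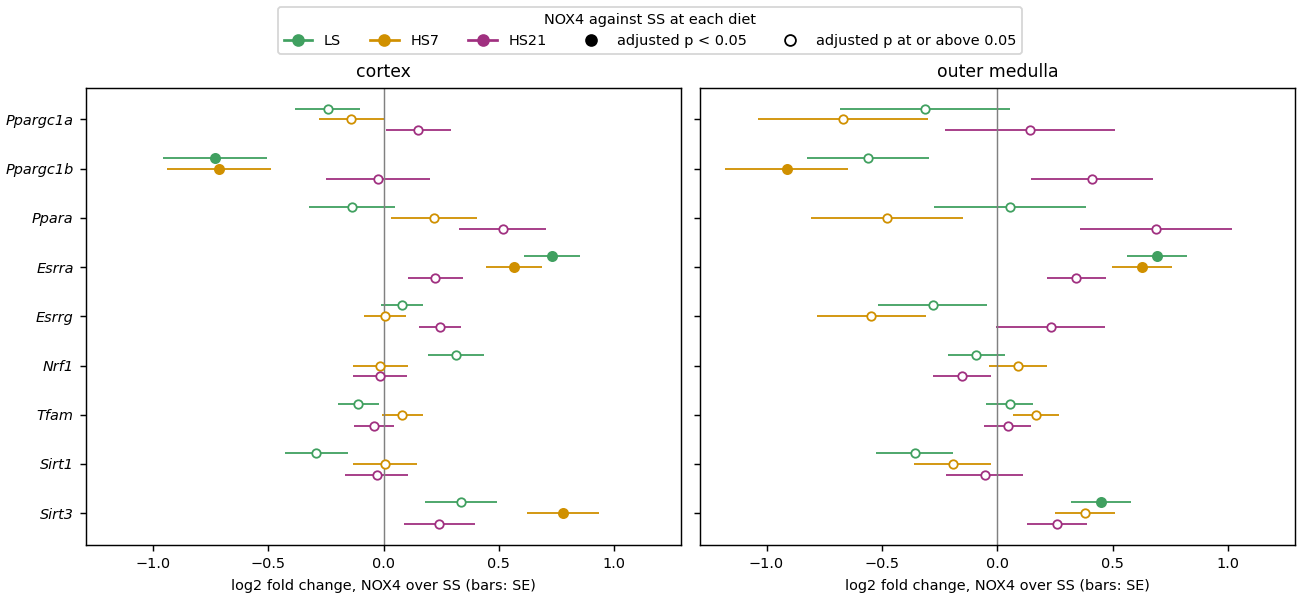
Log2 fold change of NOX4 over SS with its SE for each member at LS, HS7 and HS21, in cortex and outer medulla, filled where the adjusted p was below 0.05. Esrra lies to the right at every diet, and Ppargc1b lies to the left at LS and HS7 and near or right of 0 at HS21.

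Sirt3, the mitochondrial deacetylase, was higher in NOX4 rats by a log2 fold change of 0.45 ± 0.09 in cortex (edgeR adjusted p = 0.000326) and 0.36 ± 0.08 in outer medulla (0.000865). At HS7 in cortex the SS libraries held 12.5, 21.5, 27.9, 25.9 and 25.4 CPM and the NOX4 libraries 35.1, 36.9, 44.6, 46.6 and 31.4. All NOX4 values were above all SS values, with 1 low-complexity SS library far below the rest. The 2 highest NOX4 values were those of replicates 3 and 4, whose library names are out of sequence. These 2 libraries held 7.99 and 14.1 summed CPM of red blood cell markers, against 136 to 285 in the rest of the group. Their fibroblast and pericyte markers summed to 238 and 299 CPM, against 463 to 577. The cortex difference was 0.78 ± 0.16 at HS7, which passed, and 0.33 ± 0.16 at LS, which did not (adjusted p = 0.126). At LS in outer medulla the SS libraries held 18.4, 15.5, 21.5, 19.8 and 19.5 CPM and the NOX4 libraries 27.8, 28.1, 22.9, 26.8 and 23.8. The groups did not overlap, and the difference of 0.45 ± 0.13 passed. That call was lost with any 1 of 3 libraries left out: 0.39 (adjusted p = 0.0543) without SS replicate 2, 0.42 (0.0573) without NOX4 replicate 2 and 0.44 (0.0545) without NOX4 replicate 4. The averaged difference was 0.36 in cortex and 0.46 in outer medulla without the low-complexity libraries, both called, as were those at HS7 in cortex (0.64) and at LS in outer medulla (0.45, adjusted p = 0.0497). The averaged cortex difference was 0.30 with the segment 3 score as a covariate (adjusted p = 0.16).

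Ppargc1b, for PGC-1 beta, was lower in NOX4 cortex, averaged over diets by -0.49 ± 0.13 (edgeR adjusted p = 0.00472). At LS in cortex the SS libraries held 16.2, 18.3, 32.0, 22.8 and 15.3 CPM and the NOX4 libraries 16.0, 11.4, 8.75, 12.8 and 14.2. The 3 highest SS values were those of the low-complexity libraries, at 18.3 to 32.0 CPM, and the other 2 SS libraries overlapped the NOX4 range. At HS7 the pattern was alike: the 2 low-complexity SS libraries held 27.1 and 29.9 CPM, the other 3 held 11.1 to 18.3 and the NOX4 libraries 10.9 to 17.2. With the low-complexity libraries the cortex difference was -0.73 ± 0.23 at LS and -0.71 ± 0.23 at HS7, and both passed. Without them it was -0.33 at LS, -0.28 at HS7 and -0.21 averaged over diets, and none passed (adjusted p = 0.36, 0.33 and 0.17).

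In outer medulla the averaged Ppargc1b difference, -0.35 ± 0.15, did not pass (adjusted p = 0.077). It was called at HS7, at -0.91 ± 0.27. There the SS libraries held 24.2, 22.9, 48.8, 23.9 and 13.2 CPM and the NOX4 libraries 17.9, 18.5, 6.62, 9.59 and 17.8. The highest SS library, replicate 3, carried 9464 summed CPM of the 7 markers of proximal tubule segments 1 and 2, against 446 to 3497 in the other SS libraries at HS7. The call was lost without SS replicate 1 (-0.95), 2 (-0.96) or 3 (-0.57) or without NOX4 replicate 3 (-0.73) or 4 (-0.80), at adjusted p from 0.0534 to 0.114, and without the low-complexity libraries (-0.34, adjusted p = 0.43). The cortex calls at 1 diet also turned on single libraries. At LS the difference was -0.53 without SS replicate 3 and -0.62 without NOX4 replicate 3. At HS7 it lay between -0.69 and -0.54 without SS replicate 1 or 4 or NOX4 replicate 1, 2, 3 or 4. None of these passed. Nor did the HS7 difference without NOX4 replicates 3 and 4 together (-0.62), whose library names are out of sequence with the rest.

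The remaining members, Ppargc1a, Ppara, Esrrg, Nrf1, Tfam and Sirt1, passed in no comparison of the strains in the fits over all groups. Averaged over diets their log2 fold changes ran from -0.10 ± 0.08 (Sirt1) to 0.20 ± 0.11 (Ppara) in cortex and from -0.28 ± 0.21 (Ppargc1a) to 0.09 ± 0.06 (Tfam) in outer medulla. Esrrg in cortex, at 0.11 ± 0.05, passed once SS HS21 replicate 5 was left out (0.15, adjusted p = 0.0133). In outer medulla Ppargc1b (-0.41, adjusted p = 0.0308) passed without SS HS7 replicate 5, and Tfam (0.13, 0.0293) and Sirt1 (-0.25, 0.0168) without SS LS replicate 5.

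By diet, the members passing were 2 of 9 in cortex at LS (Esrra and Ppargc1b, background 22%), 3 of 9 at HS7 (Esrra, Sirt3 and Ppargc1b, background 17.4%) and 0 of 9 at HS21 (background 1%). In outer medulla they were 2 of 9 at LS (Esrra and Sirt3, background 14.8%), 2 of 9 at HS7 (Esrra and Ppargc1b, background 9.61%) and 0 of 9 at HS21 (background 1.63%). At HS21 2 members in each tissue were at an unadjusted p below 0.05, Ppara and Esrrg in cortex and Ppara and Esrra in outer medulla, and DESeq2's Wald test called 0. Of all genes tested, 1729 of 15179 in cortex and 2804 of 15799 in outer medulla had an unadjusted p below 0.05. The difference of Ppara at HS21 was 0.52 ± 0.19 in cortex (adjusted p = 0.227) and 0.69 ± 0.33 in outer medulla (0.273).

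The HS21 groups held no low-complexity library, and a fit of the 2 HS21 groups alone was added after the data had been seen. In outer medulla that fit called 4 of 9 members, all higher in NOX4, against 24.2% of genes. They were Ppara (0.69, edgeR adjusted p = 0.0243), Ppargc1b (0.41, 0.0445), Esrra (0.35, 0.0365) and Sirt3 (0.26, 0.0433). Ppara in SS was 5.76, 5.74, 7.67, 4.82 and 8.53 CPM and in NOX4 10.01, 9.50, 7.82, 12.5 and 12.5. These groups overlapped by 1 NOX4 library. In cortex the same fit called 1 member against 8.46% of genes, Ppara (0.52, adjusted p = 0.0428). Its SS libraries held 21.7, 22.9, 20.2, 19.1 and 26.6 CPM and the NOX4 libraries 33.9, 32.9, 27.6, 22.6 and 40.9. The authors' deposited table, for its own HS21 comparison in outer medulla, gives adjusted p-values below 0.05 for the same 4 genes. In cortex the authors' deposited table does so for 2, Ppara and Sirt3. The share of all genes below 0.05 in that table was not computed. For Ppargc1b at HS7 its adjusted p was not below 0.05 in either tissue. At HS7 fits of the 2 groups alone called 0 of 9 members in either tissue, and over all genes they called 1.29% in cortex and 0% in outer medulla.

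In SS rats several members were lower after 21 days of high salt than after 7 days. In cortex HS21 against HS7, 4 of 9 members fell and 0 rose, against a background of 9.25% of genes. Ppargc1b fell by a log2 fold change of -0.80 ± 0.23, Ppara by -0.59 ± 0.19, Ppargc1a by -0.48 ± 0.14 and Esrrg by -0.38 ± 0.09 (edgeR adjusted p = 0.0241, 0.0446, 0.0306 and 0.00965). Esrrg was called in every leave-one-out fit, though not when the 2 groups were fitted alone (-0.38, adjusted p = 0.0858). Its HS7 libraries held 75.8, 101, 87.4, 88.5 and 86.5 CPM and its HS21 libraries 63.6, 65.0, 61.6, 59.3 and 87.3. Of the HS21 libraries 4 were below every HS7 library, and replicate 5 stood within the HS7 range.

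The other 3 calls were close to the threshold. Ppara lost its call in 7 of 10 leave-one-out fits, without SS HS7 replicate 2, 3 or 5 or SS HS21 replicate 1, 2, 3 or 4, at -0.60 to -0.52. Ppargc1a lost it without HS7 replicate 2 or 4 or HS21 replicate 1, 3 or 4, at -0.48 to -0.39, and Ppargc1b without HS7 replicate 1 or 4 or HS21 replicate 3, 4 or 5, at -0.77 to -0.63. Esrrg (-0.44) and Ppara (-0.77) passed without the low-complexity libraries, and Ppargc1a (-0.36) and Ppargc1b (-0.37) did not.

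In cortex HS21 against LS in SS, 3 of 9 members passed against 16.5% of genes: Ppargc1b fell (-0.83 ± 0.22, edgeR adjusted p = 0.0123), and Esrra (0.47 ± 0.12, 0.00911) and Nrf1 (0.39 ± 0.12, 0.0244) rose. Esrra went from 75.7 to 105 CPM at LS to 114 to 141 at HS21, without overlap. Its change was 0.48 without the low-complexity libraries and 0.35 with the segment 3 score as a covariate, and passed in neither (adjusted p = 0.083 and 0.062). It did pass when the 2 groups were fitted alone, with the low-complexity libraries (0.46) and without them (0.47, adjusted p = 0.0252), fits that were added after the data had been seen and that called 15.4% of genes with all libraries.

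Nrf1 in cortex at LS was 19.3, 11.4, 16.6, 14.2 and 21.1 CPM in SS, with the 3 lowest values in the low-complexity libraries, and 20.6 to 23.0 CPM at HS21. Without those libraries its change was 0.11 and did not pass, nor did it when the 2 groups were fitted alone (0.39, adjusted p = 0.084). It also failed to pass without SS LS replicate 2 (0.29) or 4 (0.34) or SS HS21 replicate 5 (0.37). The authors' deposited table gives Nrf1 no adjusted p below 0.05 in this comparison or at HS7 against LS. Ppargc1b was -0.42 without the low-complexity libraries (adjusted p = 0.25) and -0.63 without SS LS replicate 3 (0.0582). With a library left out edgeR also called Ppargc1a (-0.46 without SS LS replicate 1, -0.44 without SS LS replicate 2), Ppara (-0.58 without SS LS replicate 1) and Esrrg (-0.35 without SS HS21 replicate 5). DESeq2's Wald test called Ppargc1a (-0.39, adjusted p = 0.0391) and Esrrg (-0.24, 0.0497) with all libraries. The summed segment 3 markers described below were 4383 to 7603 CPM at LS and 1878 to 4082 at HS21 in SS cortex, without overlap, and 2 of the 7 fell. With their score as a covariate Nrf1 was the 1 member called, against 9.02% of genes.

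At HS7 against LS in SS cortex only Nrf1 passed, 1 of 9 members against 2.25% of genes. It rose by 0.49 ± 0.12 (edgeR adjusted p = 0.0292), and its HS7 libraries held 25.8, 21.1, 20.9, 27.5 and 21.2 CPM. The 2 highest of these, and the 3 lowest LS values above, were low-complexity libraries, and the change without them was 0.06. The call was also lost without SS LS replicate 2 (0.39) or 4 (0.44) or SS HS7 replicate 4 (0.43).

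In outer medulla HS21 against LS in SS, 2 of 9 members fell against 9.86% of genes: Ppargc1b by -1.05 ± 0.27 (edgeR adjusted p = 0.0132) and Esrrg by -0.98 ± 0.24 (0.01). Ppargc1b was 29.8, 29.5, 18.4, 32.7 and 28.9 CPM at LS and 15.01, 12.7, 15.7, 9.50 and 14.5 at HS21. Esrrg was 264, 248, 235, 202 and 313 CPM at LS and 131, 128, 136, 101 and 142 at HS21. Neither gene's groups overlapped. The Ppargc1b change was -1.21 and called without the low-complexity libraries, but was not called without SS HS21 replicate 4 (-0.94, adjusted p = 0.0527). The Esrrg change was -0.86 without the low-complexity libraries and not called (adjusted p = 0.08), and -0.89 and called when the 2 groups were fitted alone without those libraries.

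Ppargc1a showed the same separation, with 105, 113, 166, 115 and 103 CPM at LS and 62.0, 74.7, 81.3, 48.8 and 57.9 at HS21, no overlap. The change of -0.89 ± 0.37 did not pass in the fit over all groups (adjusted p = 0.127) and passed in the fit of the 2 groups alone (-0.88, adjusted p = 0.00737), which called 3 members against 11.5% of genes. The authors' deposited table gives adjusted p-values below 0.05 in this comparison for 4 members, Ppargc1a, Ppargc1b, Ppara and Esrrg. The share of all genes below 0.05 in that table was not computed. Sirt1 (-0.36 ± 0.17) passed only without SS LS replicate 5 (-0.52) or without the low-complexity libraries (-0.55). At HS7 against LS (background 2.37%) and at HS21 against HS7 (background 0.652%) 0 of 9 members passed in SS outer medulla. At an unadjusted p below 0.05 there were 1 and 3 members, beside 3451 and 2267 of the 15799 genes tested. DESeq2 called 0 and 1 members.

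**Figure D4:**
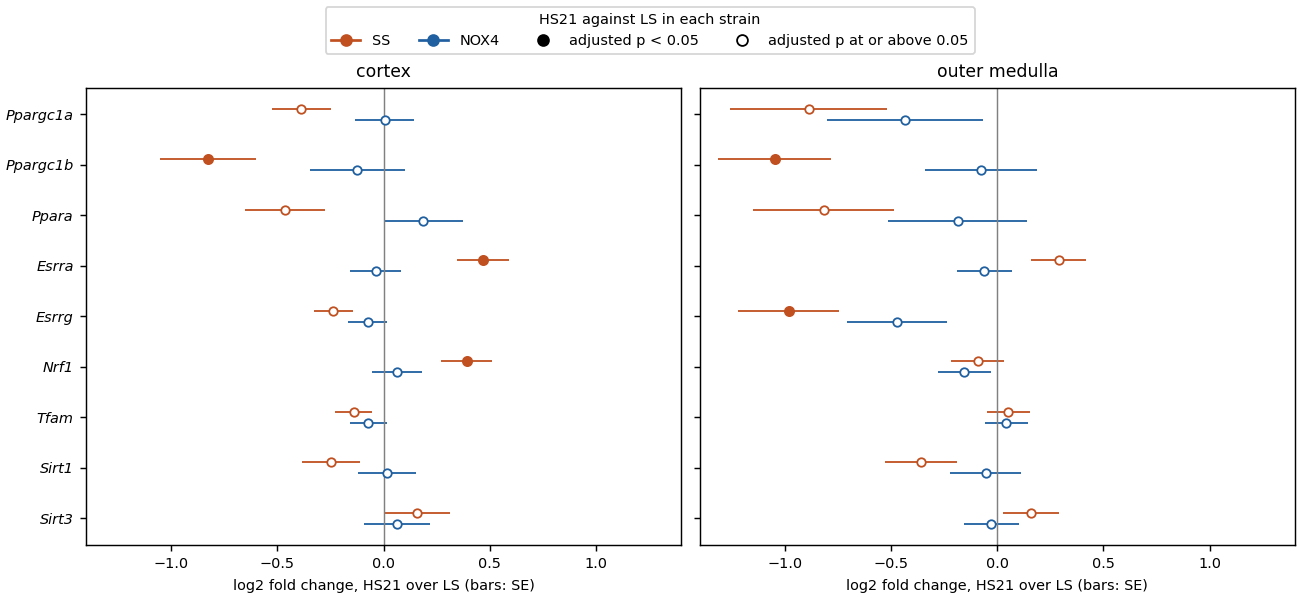
Log2 fold change of HS21 over LS with its SE for each member in SS and NOX4 rats, in cortex and outer medulla, filled where the adjusted p was below 0.05. The SS values of the 2 coactivators, Ppara and Esrrg lie left of 0 in both tissues, with filled points for Ppargc1b in both and for Esrrg in outer medulla, and no NOX4 value is filled.

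In NOX4 rats no member passed in any of the 4 comparisons of a high-salt diet with LS, and neither did any gene tested, so the background was 0% in each. In cortex 782 genes at HS7 and 236 at HS21 had an unadjusted p below 0.05, and DESeq2 called 18 and 7 genes. In outer medulla these numbers were 2162 and 249, and 124 and 5. Among the members, 1 in cortex (Ppara, 0.48 ± 0.19) and 3 in outer medulla (Ppargc1a, Ppara and Esrrg) were at an unadjusted p below 0.05 at HS7, and 0 at HS21. At HS21 the cortex log2 fold changes lay between -0.12 ± 0.23 (Ppargc1b) and 0.19 ± 0.19 (Ppara), and those of outer medulla between -0.47 ± 0.24 (Esrrg) and 0.04 ± 0.10 (Tfam).

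Whether the response to 21 days of salt differed between the strains was tested as an interaction, and 0 of 9 members passed in either tissue, against 1.08% of genes in cortex and 0.0253% in outer medulla. By an unadjusted p below 0.05 there were 3 members in cortex and 1 in outer medulla, and DESeq2's Wald test called 0 in both. Of all genes tested, 2438 of 15179 in cortex and 1466 of 15799 in outer medulla had an unadjusted p below 0.05. The estimates at an unadjusted p below 0.05 were Esrra (-0.51 ± 0.17, adjusted p = 0.131), Ppargc1b (0.71 ± 0.32, 0.264) and Ppara (0.65 ± 0.26, 0.213) in cortex and Ppargc1b (0.97 ± 0.37, 0.384) in outer medulla. Changes that passed in SS and not in NOX4 are thus not shown to differ between the strains.

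In outer medulla the lowest levels of Ppargc1a and Esrrg were in libraries low in the markers of the thick ascending limb, the segment that reabsorbs salt through the Slc12a1 cotransporter. NOX4 HS7 replicates 3 and 4 held the lowest summed levels of its 8 markers, 6704 and 7258 CPM, against 14057 to 17457 in the other 3 libraries of that group. The same 2 libraries held 15.8 and 21.8 CPM of Ppargc1a against 73.5 to 87.9, 59.4 and 65.6 CPM of Esrrg against 126 to 160, and 2.87 and 2.21 CPM of Ppara against 9.90 to 11.7. In SS HS7 replicate 3, where the marker sum was 8841 CPM, Ppargc1a was 27.5 CPM and Esrrg 109, while Ppara, at 11.96 CPM, was the highest of its group (8.34 to 11.2 in the others) and Ppargc1b was 48.8. Esrra in the 2 low NOX4 libraries was 146 and 156 CPM, near the 162 to 176 CPM of the others, and Sirt3 was 32.5 and 33.1 CPM, above the 23.1 to 28.7 of the others. These 2 libraries were also high in principal cell markers (3868 and 4337 summed CPM against 1589 to 2639), intercalated cell markers (1307 and 1510 against 552 to 640) and mitochondrial reads (13.9 and 14.7% against 10.7 to 11.04%). The marker sum at HS21 in SS, 10508 to 15145 CPM, was below its range at LS, 17042 to 21751, without overlap. Of the 8 markers, 1 fell and 0 rose in that comparison (median -0.42). Fibroblast and pericyte markers summed to 1403 to 2049 CPM at LS and to 3203 to 4469 in 4 of the HS21 libraries, with 1886 in replicate 5, and 2 of the 4 rose (median 0.83). The part of all these markers in the lower Ppargc1a, Ppargc1b and Esrrg was not tested.

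**Figure D5:**
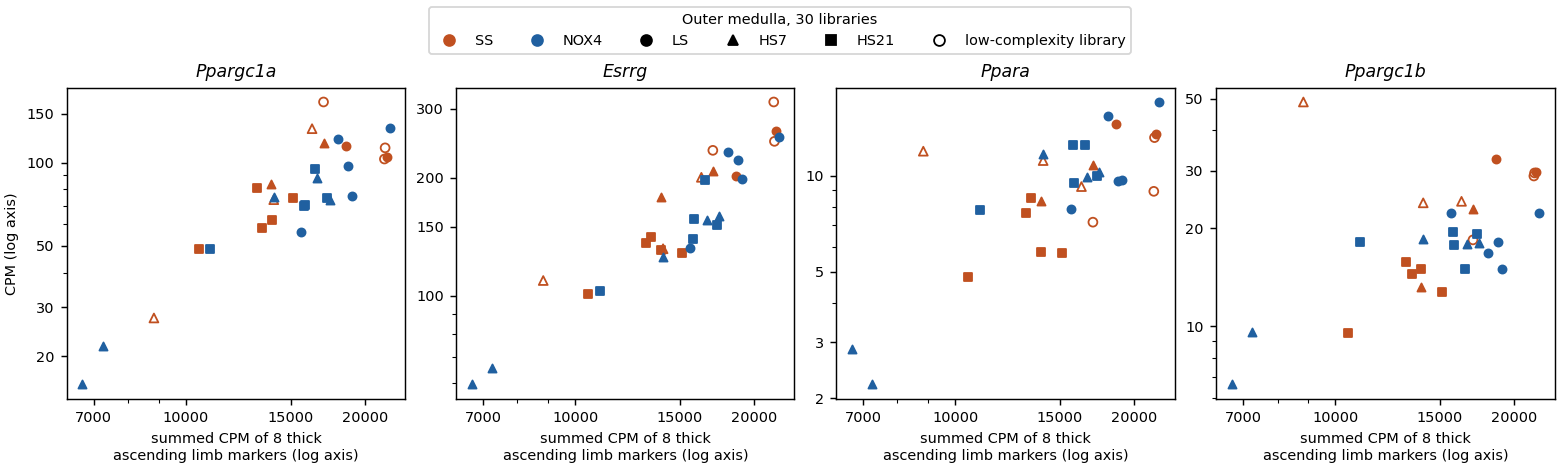
CPM of Ppargc1a, Esrrg, Ppara and Ppargc1b against the summed CPM of 8 thick ascending limb markers in the 30 outer medulla libraries, both axes logarithmic, with strain by colour, diet by symbol and low-complexity libraries open. The 3 libraries lowest in the markers, at 6704, 7258 and 8841 CPM, hold the 3 lowest Ppargc1a values, 15.8, 21.8 and 27.5 CPM.

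The markers of proximal tubule segment 3, which spans the border of cortex and outer medulla, differed between the strains, averaged over diets, in both tissues. In NOX4 cortex 6 of 7 were lower and 0 higher (median -0.76), and in NOX4 outer medulla 6 were higher and 1 lower (median 1.09). Their summed level was 4383 to 7603 CPM in SS and 1417 to 2649 in NOX4 in cortex at LS, without overlap, and 667 to 3093 in SS and 2768 to 11700 in NOX4 in outer medulla at LS. The strains overlapped in cortex at HS7 (1686 to 6690 in SS, 1451 to 2401 in NOX4) and at HS21 (1878 to 4082 and 1412 to 2402). In outer medulla they overlapped at all 3 diets, with 919 to 11959 in SS and 4806 to 8719 in NOX4 at HS7. None of the 7 was at 0 in every library, and only Slc22a7 was at 0 in any. All 4 fibroblast and pericyte markers were lower in NOX4 in both tissues. The part of these markers in the members' differences was not tested beyond the covariate. With a mean log2 score of the segment 3 markers as a covariate, the averaged Esrra difference was 0.35 in cortex (adjusted p = 0.03) and 0.64 in outer medulla (0.00019), both called. That of Sirt3 was 0.30 in cortex and not called (0.16) and 0.35 in outer medulla and called (0.029), and that of Ppargc1b was -0.26 in cortex and not called (0.46).

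Genes of the pathways around the members were followed in 6 lists. For the strains averaged over diets, 31.7% of all genes passed in cortex and 30.4% in outer medulla. Counts near these shares are not a result about a list. Averaged over diets, 10 of 24 ERR and PGC-1 alpha targets were higher in NOX4 cortex and 1 lower, with a median log2 fold change of 0.12 beside 0.00 over all genes. In outer medulla 16 of the 24 were higher and 0 lower, with a median of 0.29 beside -0.02. Cox6a1, a cytochrome c oxidase subunit, was higher by 0.48 ± 0.07 in cortex and 0.64 ± 0.08 in outer medulla, and Atp5g1, a subunit of ATP synthase, by 0.45 ± 0.06 and 0.53 ± 0.07. Cycs, for cytochrome c, was lower in cortex (-0.50 ± 0.07) and higher in outer medulla (0.51 ± 0.19). Adding the segment 3 score as a covariate lowered the share of all genes called to 3.91% in cortex and 7.49% in outer medulla, and 1 and 5 of the 24 targets passed. Leaving out the low-complexity libraries gave 32.9% and 40.9% of all genes, and 11 and 17 targets.

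PPAR alpha targets were higher in 11 of 26 and lower in 2 in NOX4 cortex (median 0.15), and higher in 14 and lower in 1 in outer medulla (median 0.33). Vnn1, a pantetheinase, was higher in cortex by 0.80 ± 0.15 and Acaa1a, a peroxisomal thiolase, by 0.75 ± 0.08. Cyp4a8, an arachidonic acid hydroxylase of the proximal tubule, was lower in cortex (-0.47 ± 0.08) and higher in outer medulla (0.96 ± 0.31), as were most of the segment 3 markers. The fatty acid transporter Slc27a2 was higher in outer medulla by 1.24 ± 0.32, and Angptl4, an inhibitor of lipoprotein lipase, was lower (-0.71 ± 0.20). With the covariate 4 of the 26 passed in cortex and 5 in outer medulla, beside the 3.91% and 7.49% of all genes. Without the low-complexity libraries 8 and 16 passed, beside 32.9% and 40.9% of all genes.

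Of 27 nuclear receptors and coregulators, 6 were higher and 6 lower in NOX4 cortex (median -0.07), and 2 were higher and 8 lower in outer medulla (median -0.19). The acetyltransferases Crebbp (-0.34 ± 0.07 and -0.44 ± 0.06) and Ep300 (-0.31 ± 0.08 and -0.65 ± 0.17) were lower in cortex and outer medulla, and the retinoid X receptor Rxrb was higher (0.37 ± 0.09 and 0.45 ± 0.07). Hnf4a, a receptor of proximal tubule cells, was higher in outer medulla by 1.13 ± 0.34. With the covariate 2 of 27 passed in outer medulla and 0 in cortex, where DESeq2, run without it, called 13 and a count by unadjusted p was not computed. Both counts are near the share of all genes called in those fits. Without the low-complexity libraries 9 passed in cortex and 11 in outer medulla, beside 32.9% and 40.9% of all genes.

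Among 21 energy sensors, NAD supply genes and other sirtuins, 6 were higher and 1 lower in NOX4 cortex (median 0.04), and 7 higher and 3 lower in outer medulla (median 0.04). The cortex count is near the 31.7% of all genes called there, and 30.4% were called in outer medulla. Stk11, for the kinase LKB1 that activates AMP-activated kinase, was higher by 0.31 ± 0.05 in cortex and 0.31 ± 0.08 in outer medulla, and Prkag1, a regulatory subunit of that kinase, was lower (-0.36 ± 0.07 and -0.53 ± 0.08). Tfeb, a regulator of lysosomal genes, was higher in cortex by 0.43 ± 0.06, and Cd38, which consumes NAD, was lower in outer medulla (-0.71 ± 0.12). Of 25 genes of mitochondrial DNA upkeep and transcription, 5 were higher and 4 lower in cortex (median 0.00) and 4 higher and 0 lower in outer medulla (median 0.06). Polrmt, the mitochondrial RNA polymerase, was higher in cortex by 0.32 ± 0.06, and Polg2, the accessory subunit of the mitochondrial DNA polymerase, by 0.29 ± 0.09 in cortex and 0.57 ± 0.10 in outer medulla, while Tfam itself did not pass. Of the 11 mitochondrially encoded protein genes 3 were lower in NOX4 cortex (median -0.12) and 1 was higher in outer medulla (median 0.04). Without the low-complexity libraries 10 and 13 of the energy sensors and 13 and 6 of the upkeep genes passed in cortex and outer medulla. Of all genes 32.9% and 40.9% then passed.

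At HS21 alone the lists gave 1 PPAR alpha target in cortex (Hadhb, a subunit of the mitochondrial trifunctional protein, 0.23 ± 0.06) and 0 ERR and PGC-1 alpha targets, of which DESeq2 called 1 (unadjusted p-values were not counted). In outer medulla they gave 1 PPAR alpha target (Acadm, medium-chain acyl-CoA dehydrogenase, 0.78 ± 0.19) and 4 ERR and PGC-1 alpha targets, among them Mdh1 (0.61 ± 0.16), Sdhb (0.53 ± 0.14) and Sdhd (0.51 ± 0.13). Of all genes 1% passed in cortex and 1.63% in outer medulla. The fit of the 2 HS21 groups alone, added after the data had been seen, called 16 of the PPAR alpha targets and 20 of the ERR and PGC-1 alpha targets in outer medulla, and 6 and 7 in cortex. Of all genes it called 24.2% in outer medulla and 8.46% in cortex. Without the low-complexity libraries, none of which is an HS21 library, the fit over all groups called 11 and 16 in outer medulla and 2 and 2 in cortex, and 14% and 3.73% of all genes. With the segment 3 score as a covariate edgeR called 0 of either list in either tissue, and 0.076% of all genes in outer medulla and 0.25% in cortex.

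In SS rats the mitochondrially encoded protein genes fell at HS21 against LS, 11 of 11 in cortex (median -0.54 beside 0.01 over all genes) and 7 of 11 in outer medulla (median -0.61 beside 0.02). Of all genes 16.5% passed in cortex and 9.86% in outer medulla. Mt-atp8 fell by -1.61 ± 0.30 in cortex and -1.45 ± 0.24 in outer medulla, and Mt-nd3 by -0.96 ± 0.12 and -0.93 ± 0.19. Tfam, whose product starts their transcription, changed by -0.14 ± 0.09 and 0.05 ± 0.10 and did not pass. Of the 11 genes 8 passed in cortex and 9 in outer medulla without the low-complexity libraries. The interaction of strain with salt passed for 2 of the 11 in cortex (median 0.40) and for 0 in outer medulla (median 0.48), where DESeq2 called 2. Reads on the mitochondrial chromosome were 13.1 to 15.7% of counts in SS cortex at LS and 10.5 to 12.5% at HS21. In NOX4 cortex they were 12.4 to 15.9% at LS and 11.7 to 13.4% at HS21, where the ranges overlapped. Mitochondrial mRNAs carry short poly(A) tails, and whether poly(A) enrichment recovered them equally in all libraries was not tested.

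The nuclear lists moved less in that comparison, in which 16.5% of all genes passed in cortex and 9.86% in outer medulla. Of the ERR and PGC-1 alpha targets in SS cortex 7 of 24 fell and 2 rose (median -0.10), with Cycs (-0.59 ± 0.13) and Cox6c (-0.39 ± 0.09) among those that fell and Cox6a1 (0.42 ± 0.12) among those that rose. Of 26 PPAR alpha targets 5 fell and 2 rose (median -0.06), with Pex11a (-0.70 ± 0.14), a peroxisome division protein, and Cyp4a8 (-0.68 ± 0.14) lower and the uncoupling protein Ucp2 higher (0.86 ± 0.21). In SS outer medulla 4 ERR and PGC-1 alpha targets fell and 1 rose (median -0.22), and 2 PPAR alpha targets fell and 1 rose. The PPAR alpha targets that fell were Pdk4 (-1.09 ± 0.27), which inhibits pyruvate dehydrogenase, and Acsl1 (-0.67 ± 0.21), which activates fatty acids. The lipid droplet protein Plin2 rose (0.47 ± 0.15). Crebbp fell in SS in both tissues (-0.60 ± 0.11 and -0.83 ± 0.10). Without the low-complexity libraries the ERR and PGC-1 alpha list gave 2 calls in each tissue and the PPAR alpha list 2 in cortex and 1 in outer medulla. Of all genes 5.95% and 8.66% then passed in cortex and outer medulla.

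Over the 12 group means of log2 CPM, the genes whose pattern was most like each member's were ranked by Pearson's r among 13553 genes. Ppara was matched by Pitrm1 (r = 0.995) and Mpp5 (0.993), and Sirt3 by Dguok (0.99) and Tcf25 (0.98). Esrra was matched by Znhit2 and Tmem55b (both 0.98), and Ppargc1a by Efr3a (0.97) and Inpp4b (0.95). Esrrg was matched by Aplp2 (0.97) and Slc16a7 (0.96), Nrf1 by Fsd1 (0.98), Sirt1 by Zbtb40 (0.97), Ppargc1b by Sec63 and Scfd1 (both 0.94) and Tfam by Zfp563 (0.93). The 12 points share the tissue difference, which most genes show, so a high r describes these groups and carries no test.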

How the data were processed

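The authors deposited 1 table of raw read counts per gene and library, FPKM values, and their own log2 fold changes with p-values for pairs of groups, per the file headers. HISAT2 2.0.5, StringTie 1.3.3b and featureCounts 1.5.0-p3 are named in the submitters' processing notes. The genome build, the strandedness and the tool behind the authors' comparisons are not given in the sources used here, and no coordinates from the table are printed. Deposited counts were tested in R 4.3.3 with edgeR 4.0.16 (quasi-likelihood F test, TMM, filterByExpr by group), 1 fit per tissue over its 30 libraries and 1 over all 60 for the tissues. P-values were Benjamini-Hochberg adjusted over all genes tested, and a call is an adjusted p below 0.05. SE is the log2 fold change over the root of F, and CPM uses totals scaled by TMM within each tissue. FPKM was used for levels between genes. Marker scores are means of log2(CPM + 0.5). Alternatives were DESeq2 1.42.0 and its size factors, no filter, a replicate block, the segment 3 score as covariate, leaving out low-complexity libraries, 2 NOX4 HS7 cortex libraries or each library, and, added after seeing the data, fits of 2 groups alone. The scripts were tested on simulated data.

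Of 144 list entries 138 matched a gene, and of 66 marker entries 64. The 9 members and all lists were chosen with earlier results of these data known. Named genes are the members, up to 3 called genes per list and direction with the largest change for NOX4 against SS (averaged and at HS21) and HS21 against LS in SS, and the 2 genes most like each member. 1 gene that this rule names is not reported here. Promoters are from RefSeq (GRCr8), and all 9 members matched.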

Additional observations from a re-analysis of the deposited data

Results flagged for a closer look

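In each of 108 sets of 5 libraries (9 members in 12 groups) the highest and lowest library were compared with the rest, and 7 stood apart by Dixon's criterion at 95%. Chance alone marks about 1 in 20 such sets. SS LS outer medulla replicate 3, a low-complexity library, held 166 CPM of Ppargc1a against 103 to 115 in the others, and 18.4 CPM of Ppargc1b against 28.9 to 32.7. SS HS21 cortex replicate 5 held 141 CPM of Esrra against 114 to 121 and 87.3 CPM of Esrrg against 59.3 to 65.0. NOX4 HS7 cortex replicate 5 held 17.2 CPM of Ppargc1b against 10.9 to 11.9. NOX4 HS21 outer medulla replicate 5 held 211 CPM of Esrra against 153 to 163, and replicate 1 of that group 27.4 CPM of Sirt1 against 20.6 to 22.5.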

How the results depend on the processing

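The number of members called was within 1.5 times the number reported in 126 of 146 alternative values. A count of 0 beside a count of 0 was scored as within that range. The 126 thus include comparisons in which no member was called at all. Without the low-complexity libraries it was 1 for NOX4 against SS at LS in cortex, where 10.4% of all genes were called. In SS cortex it was then 0 for HS7 against LS (0.0832% of genes), 0 for HS21 against LS (5.95%) and 2 for HS21 against HS7 (11.9%). With the segment 3 score as a covariate it was 1 for the strains averaged in cortex, 0 at LS in cortex, 1 at LS in outer medulla, and in SS cortex 0 for HS7 and 1 for HS21 against LS. In the first 3 of these the share of all genes called also fell, to 3.91%, 0.514% and 2.6%. DESeq2 gave 5 for HS21 against LS in SS cortex (21% of genes). It gave 1 for HS21 against HS7 in SS outer medulla (2.24%) and 1 for HS7 against LS in NOX4 outer medulla (0.852%). Fits of the 2 groups alone gave 0 for the strains at HS7 in cortex (1.29% of genes) and outer medulla (0%). At HS21 they gave 1 in cortex (8.46%) and 4 in outer medulla (24.2%). In SS cortex they gave 0 for HS7 against LS (0.00717%) and 2 for HS21 against HS7 (2.58%). Without the low-complexity libraries such fits gave 1 in cortex (9.43%) and 5 in outer medulla (11.6%) for HS21 against LS in SS. The cause was not tested. With each library left out the counts ran, in cortex, from 1 to 4 (SS HS21 against HS7), 2 to 5 (SS HS21 against LS), 0 to 1 (SS HS7 against LS), 0 to 1 (strains at HS21) and 1 to 3 (strains at LS). In outer medulla they ran from 0 to 2 (SS HS21 against HS7), 1 to 3 (SS HS21 against LS), 1 to 3 (strains at HS7), 1 to 3 (strains at LS) and 2 to 4 (strains averaged).

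Of 411 alternative values of single members, 361 kept direction and side of the threshold, 34 lost a call and 12 gained one. Reversals were of uncalled values: for the strains averaged, Ppargc1a was 0.01 in cortex without the low-complexity libraries and 0.21 in outer medulla with the covariate, and Tfam in cortex was 0.01 without them, 0.03 with the covariate and, over single left-out libraries, -0.05 to 0.01 (without SS HS7 replicate 1). Ppargc1b between tissues was -0.02 (without SS HS7 outer medulla replicate 3) to 0.07. The replicate number as a block gave 3 members for the strains averaged in cortex 8 between the tissues and 3, not 2, for the strains at HS7 in outer medulla, and among ERR and PGC-1 alpha targets in outer medulla 0 for the strains at HS21 and 1 for HS21 against LS in SS. The labels do not say whether same-numbered cortex and outer medulla libraries came from 1 animal. Their deviations from the group means correlated at -0.15 to 0.18 over 30 pairs, 4 of them over 0.1. Low values do not show that the animals differed, since pieces of 1 kidney can hold different cells. Depth did not keep any member from being tested, but Ppara in outer medulla rested on as few as 48 reads.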
